A study of Mus musculus with 8 samples.

Results

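The 45 genes described here encode the machinery by which a nerve terminal stores, releases and recovers synaptic vesicles. They were listed by known function, with earlier results of these data known, and put in 6 classes: 8 vesicle membrane proteins and synapsins, 8 calcium sensors with Rab3 and its effector, 2 vesicular glutamate transporters, 9 SNARE proteins and their regulators, 13 active zone and priming proteins, and 5 endocytosis proteins. All 45 were found by symbol among the 57186 genes of the count files, and all 45 passed the filter on low counts, as did 16766 genes in all. RNA was sequenced from the brain of control mice (4 libraries) and of mice with a conditional knockout (cKO) of Akap11 (4 libraries). Akap11 encodes an anchoring protein for protein kinase A, and the series title links it to synaptic transmission and to autophagy. The tissue label gives no brain region. Age, strain, the recombinase that makes the knockout conditional, the deleted exons and the cells that carry the deletion were not given in the sources used here, nor is it said that each library is a separate mouse. The p-values therefore measure the spread between these libraries.

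At a synapse, vesicles filled with transmitter dock at the active zone, a protein scaffold built from Bassoon, Piccolo, RIM, ELKS and liprin-alpha. Munc13 proteins prime them, SNARE proteins on the vesicle and on the plasma membrane zip together to fuse the membranes, and synaptotagmins trigger fusion when calcium enters. Clathrin adaptors, dynamin, amphiphysin, endophilin and synaptojanin then recover the membrane. Protein kinase A phosphorylates several of these proteins, synapsins and RIM among them.

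Depth ran from 13841218 to 19991942 reads in genes per library. Levels are CPM, read counts divided by a library size that was scaled by the trimmed mean of M-values (TMM). Akap11 served as a check of the labels: it held 373, 312, 315 and 291 CPM in control replicates 1 to 4, and 220, 214, 237 and 240 CPM in cKO replicates 1 to 4. The groups did not overlap, and the log2 fold change (cKO minus control throughout) was -0.50 (SE 0.069, adjusted p = 0.0103 by edgeR). That adjusted p was 0.0616 without control replicate 2 and 0.104 without cKO replicate 2. An exact permutation test over the libraries gave a two-sided p of 0.0286, the lowest that 4 against 4 allows. cKO replicate 1 stood apart from the rest, with 63.8% of its reads in genes against 73.7% to 79.7% elsewhere. It had the lowest depth and the most ambiguous (10.1%), low-quality (7.18%) and unaligned reads (10.4%). The other libraries had at most 6.16%, 4.04% and 6.66% of these. On the first principal component it lay at 39.1, against -9.81 to 0.627 for the others. Control replicate 1 was the library farthest out on the second principal component. Neuronal markers were abundant: 10 general markers summed to 3886 to 4199 CPM in control brain and 3800 to 4145 CPM in cKO libraries. The 6 cerebellar markers, of which Calb1 and Cbln1 are also expressed elsewhere in the brain, summed to 158 to 206 CPM in control and 150 to 173 CPM in cKO libraries. The granule neuron markers Gabra6 and Cbln3 were highest in control replicate 2, at 4.52 and 13.2 CPM, against at most 0.924 and 3.91 CPM in the other libraries. The hindbrain genes Hoxb3 and Hoxb5 were at 0 in some libraries and never above 0.745 CPM.

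No presynaptic gene differed between control and cKO brain past the threshold: 0 of 45 reached an edgeR adjusted p of 0.05, where 0.0239% of all genes tested did. The lowest adjusted p among the 45 was 0.889. At an unadjusted edgeR p under 0.05 there were 4 members, all lower in cKO brain (Syn3, Sv2b, Erc2 and Ppfia2). Over all genes tested the share was 4.78%, made up of 1.91% lower and 2.87% higher. DESeq2 and limma voom also put these 4 members, and no other, under an unadjusted p of 0.05, and called 0 after adjustment. The share of all genes was 2.25% by DESeq2, over 32200 genes, and 4.5% by limma voom. The count of 4 rested on single libraries: without control replicate 1 it was 1 (Syn3), without control replicate 2 it was 2 (Syn3 and Erc2), and with control replicate 1 and cKO replicate 1 both left out it was 1 (Syn3). It was 5 without control replicate 4 and 6 without cKO replicate 4. The share of all genes moved too: it was 2.73%, 4.21%, 2.84%, 5.91% and 7.22% in these 5 fits, in the same order. A bulk level cannot tell fewer terminals or neurons from less RNA in each of them.

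The differences were small and measured with fair precision. The log2 fold change was negative for 30 of the 45 members (66.7%), against 48.8% of all genes tested, with a median of -0.04 against 0.0034 over all genes. It was positive for 15. The count of negative members was 23 without control replicate 1 and 36 without cKO replicate 1, beside 48% and 50.6% of all genes. All 45 intervals (95%) lay within a 1.5-fold change in either direction, as did 76.8% of those of all genes tested. These shares are not matched for read count, on which the width of an interval depends, and each member held at least 1849 reads. The widest intervals of the 45 belonged to Doc2a, Pclo, Syn3 and Erc1. None of the 45 had its 4 cKO libraries all above or all below its 4 control libraries, which 2.96% of all genes did (1.39% lower, 1.57% higher). With 3 libraries in 1 group the count of separated members was 3 without control replicate 3, 2 without control replicate 4, 2 without cKO replicate 3 and 6 without cKO replicate 4, beside 5.6%, 7.23%, 5.7% and 7.35% of all genes.

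**Figure D1:**
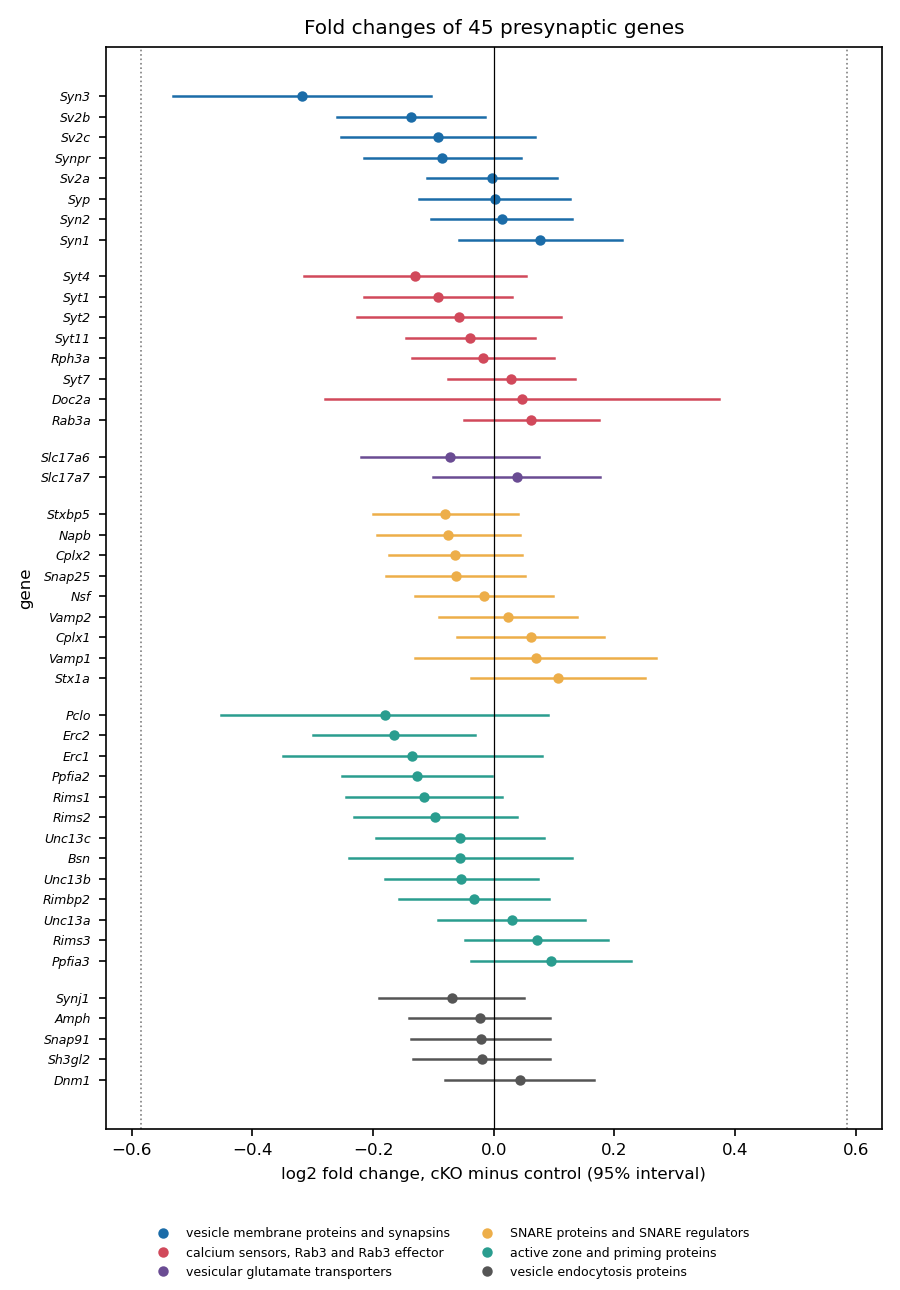
Log2 fold change (cKO minus control, x axis) of each of the 45 genes (y axis) with its 95% interval, coloured by class; the solid line is 0 and the dotted lines mark 1.5-fold in either direction. All 45 intervals lie inside the dotted lines, and 30 of the 45 points lie left of 0.

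Among the vesicle proteins, the synapsins coat the vesicle and tether it to its neighbours and to actin. Syn3, the least abundant of them in these samples, had the lowest p-value of all 45 genes. Its level was 18.0, 17.5, 17.0 and 14.9 CPM in control replicates 1 to 4, and 13.7, 11.5, 15.2 and 13.6 CPM in cKO replicates 1 to 4. Control replicate 4 and cKO replicate 3 overlapped, and the other libraries were on separate sides. The log2 fold change was -0.32 (SE 0.10, 95% interval -0.53 to -0.10), with an unadjusted p under 0.05 and an adjusted p of 0.889 by edgeR. Across the 16 alternative analyses it ran from -0.39 to -0.25, with an edgeR, DESeq2 or limma adjusted p of at least 0.679. In the GENCODE M21 annotation Timp3, on the other strand, shares 1733 exon bases with Syn3. Timp3 held 9795 reads in the 8 libraries against 2155 for Syn3, and stood at 69.5 ± 6.50 CPM in control brain and 67.3 ± 4.85 CPM in cKO brain (SD, n = 4). The strand setting of the counts was not given in the sources used here. Ambiguous reads are listed apart from the genes, at 5.14% to 10.13% of each library. The effect of the shared bases on the Syn3 values, in either direction, was not tested.

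Syn1 and Syn2, the abundant synapsins, had log2 fold changes of 0.08 and 0.01, and neither passed the test. Syn1 was at 523 ± 24.8 CPM in control brain and 551 ± 52.0 CPM in cKO brain, and Syn2 at 514 ± 17.2 and 519 ± 28.6 CPM (SD, n = 4). The cKO libraries were uneven for Syn1: replicates 1 and 2 held 613 and 575 CPM, above every control, and replicates 3 and 4 held 498 and 520 CPM. The control libraries held 557, 514, 499 and 521 CPM. Syn1 is X-linked and is a substrate of protein kinase A at its N-terminus.

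The SV2 proteins are vesicle glycoproteins that act on calcium-triggered release. Sv2b held 565, 523, 479 and 497 CPM in control replicates 1 to 4. In cKO replicates 1 to 4 it held 448, 477, 463 and 490 CPM. The cKO libraries filled a narrow band whose top reached above control replicate 3, and the log2 fold change was -0.14 (SE 0.059, unadjusted edgeR p under 0.05, adjusted p = 0.889 by edgeR). Without control replicate 1 the value of Sv2b was -0.09, and with both replicates 1 left out it was -0.07. Sv2a, the most widely expressed form, was at 625 ± 6.35 CPM in control brain and 623 ± 21.6 CPM in cKO brain, and Sv2c, enriched in the basal ganglia, at 103 ± 8.39 and 96.7 ± 10.7 CPM (SD, n = 4). Their log2 fold changes had 95% intervals of -0.11 to 0.10 (Sv2a) and -0.25 to 0.07 (Sv2c).

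Synaptophysin (Syp) and synaptoporin (Synpr) are related membrane proteins of the vesicle. Syp was the most abundant of this class per length of transcript, at 268 ± 9.79 CPM per kilobase in control brain and 269 ± 21.1 CPM per kilobase in cKO brain (SD, n = 4), and its log2 fold change was 0.0014 (95% interval -0.12 to 0.13). Synpr was at 115 ± 3.23 CPM in control brain and 108 ± 8.44 CPM in cKO brain (SD, n = 4). cKO replicates 1 and 2 were at 99.7 and 102 CPM, below the control range of 110 to 118 CPM, and replicates 3 and 4 were inside it at 117 and 114 CPM. The difference was a log2 fold change of -0.09 (SE 0.062, adjusted p = 0.889 by edgeR). Without cKO replicate 1 it was -0.05. In this class 5 of 8 members were negative, with a median of -0.04 (-0.02 without control replicate 1).

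The synaptotagmins bind calcium or regulate the calcium step of release. Syt1, the fast sensor of forebrain synapses, held 1770, 1600, 1538 and 1613 CPM in control replicates 1 to 4. It held 1435, 1506, 1552 and 1624 CPM in cKO replicates 1 to 4, so cKO replicates 3 and 4 were within the control range and replicates 1 and 2 below it. Its log2 fold change of -0.09 (SE 0.059, adjusted p = 0.889 by edgeR) did not pass. It was -0.05 without control replicate 1. Syt4, an activity-regulated synaptotagmin that does not act as a calcium sensor for fast release, held 181, 183, 180 and 162 CPM in control replicates 1 to 4. In cKO replicates 1 to 4 it held 126, 161, 177 and 180 CPM. The low cKO mean came from replicate 1: the log2 fold change was -0.13 (SE 0.087) with it and -0.04 without it.

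The other synaptotagmins differed little between the group means, while Doc2a varied widely between libraries. Syt7, a slow sensor linked to asynchronous release and facilitation, was at 355 ± 5.11 CPM in control brain and 362 ± 5.35 CPM in cKO brain (SD, n = 4), the tightest cKO group of the 45 genes. Syt11, which lacks calcium binding and acts in membrane retrieval, was at 998 ± 19.0 and 971 ± 26.9 CPM. Syt2, the fast sensor of many hindbrain and some inhibitory neurons, was at 133 ± 15.5 and 128 ± 12.7 CPM. Doc2a, a high-affinity sensor proposed to act in spontaneous and asynchronous release, was the gene with the fewest reads (1849 over 8 libraries) and the widest interval, -0.28 to 0.37. It shares 1103 exon bases with Ino80e on the other strand, which held 3019 reads.

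Rab3a, the vesicle GTPase, and Rph3a (rabphilin), its effector, complete this class. Rab3a held 528, 515, 513 and 525 CPM in control replicates 1 to 4, and 579, 549, 517 and 528 CPM in cKO replicates 1 to 4. The upper 2 cKO libraries were again replicates 1 and 2, above every control, while the others overlapped the controls; the log2 fold change was 0.06 (SE 0.054, adjusted p = 0.895 by edgeR). Without cKO replicate 1 the value of Rab3a was 0.03. Rph3a was at 515 ± 17.2 CPM in control brain and 509 ± 29.7 CPM in cKO brain (SD, n = 4). Per kilobase of transcript Rab3a (334 ± 4.76 in control, 349 ± 17.7 in cKO) and Syt1 (338 ± 20.5 and 317 ± 16.5) were the most abundant of the 8 and overlapped in level. The class had 5 negative members and a median of -0.03 (0.0055 without cKO replicate 4, -0.0071 without control replicate 1), and 0 members with an unadjusted edgeR p under 0.05.

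The vesicular glutamate transporters load glutamate into vesicles and divide the excitatory neurons of the brain: Slc17a7 (VGLUT1) serves cortex and hippocampus, and Slc17a6 (VGLUT2) thalamus, midbrain and hindbrain. Slc17a7 held 1165, 1148, 1001 and 1160 CPM in control replicates 1 to 4, and 1254, 1192, 1026 and 1120 CPM in cKO replicates 1 to 4. Slc17a6 held 108, 101, 126 and 99.7 CPM in control replicates 1 to 4, and 97.0, 104, 109 and 103 CPM in cKO replicates 1 to 4. Neither separated the groups, with log2 fold changes of 0.04 for Slc17a7 (SE 0.067, adjusted p = 0.940 by edgeR) and -0.07 for Slc17a6 (SE 0.071, adjusted p = 0.905 by edgeR). The sign of Slc17a7 turned without control replicate 3 (-0.02), without cKO replicate 1 (-0.01) and with offsets for GC content (-0.02).

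Control replicate 3 was the lowest control library for Slc17a7 and the highest for Slc17a6, and it was also the highest of all 8 libraries for Syt2 (155 CPM) and Unc13c (105 CPM). Vamp1, which with Syt2 is used at many hindbrain and motor synapses, was at 298 CPM there, second to cKO replicate 1 (303 CPM). In the same library the glycine transporter gene Slc6a5, a marker of hindbrain neurons, was at 19.2 CPM against 1.10 to 9.19 CPM in the others, and 6 oligodendrocyte markers summed to 5916 CPM against 4689 to 5427 CPM. Hoxb3 and Hoxb5 were at 0.106 and 0.745 CPM in it. The 4 thalamus markers summed to 133 to 146 CPM in control brain and 125 to 135 CPM in cKO libraries. The part of brain region in the values of these genes was not tested.

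**Figure D2:**
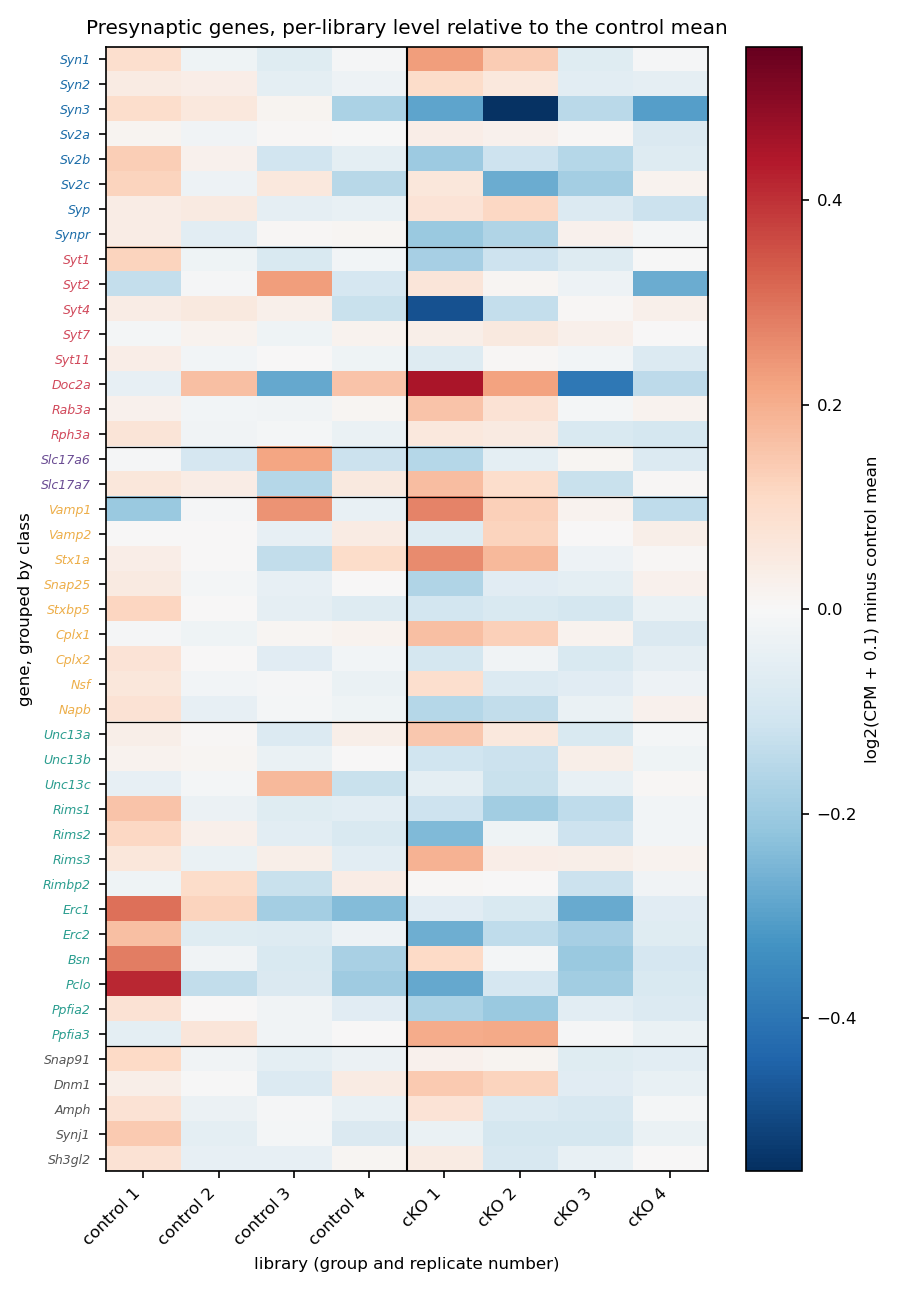
Level of each of the 45 genes (y axis, grouped by class and coloured as classes) in each library (x axis), as log2(CPM + 0.1) minus the mean of the 4 control libraries. Control replicate 1 is at or above the control mean for all but 9 genes, with Pclo at 0.41; Doc2a reaches 0.45 in cKO replicate 1 and Syn3 reaches -0.54 in cKO replicate 2.

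The SNARE genes encode the fusion engine itself: Vamp1 and Vamp2 on the vesicle, Stx1a and Snap25 on the plasma membrane. Snap25 was the most abundant of the 45 genes per kilobase, at 515 ± 14.1 CPM per kilobase in control brain and 493 ± 26.6 CPM per kilobase in cKO brain (SD, n = 4). Its single libraries held 2603, 2498, 2437 and 2522 CPM in control, and 2242, 2406, 2420 and 2559 CPM in cKO replicates 1 to 4. cKO replicate 4 lay among the controls and the other 3 below them, with a log2 fold change of -0.06 (95% interval -0.18 to 0.05). Vamp2, the main forebrain form, was at 909 ± 22.8 and 924 ± 51.4 CPM, and Vamp1 at 252 ± 33.4 and 265 ± 31.7 CPM (SD, n = 4).

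Stx1a had the largest positive value of the 45. It held 207, 202, 183 and 216 CPM in control replicates 1 to 4, and 242, 228, 197 and 202 CPM in cKO replicates 1 to 4. cKO replicates 1 and 2 were above all controls and replicates 3 and 4 within their range, and the log2 fold change of 0.11 (SE 0.069, adjusted p = 0.889 by edgeR) did not pass. Without cKO replicate 1 it was 0.05.

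The remaining members of this class control or recycle SNARE complexes. Stxbp5 (tomosyn), which binds syntaxin in place of the vesicle SNARE, held 148, 136, 131 and 129 CPM in control replicates 1 to 4, and 127, 128, 127 and 133 CPM in cKO replicates 1 to 4. Only cKO replicate 4 lay within the control range, and the log2 fold change was -0.08 (SE 0.058, adjusted p = 0.889 by edgeR). Napb (beta-SNAP), the adaptor that brings NSF to spent SNARE complexes, held 679, 622, 638 and 633 CPM in control replicates 1 to 4. It held 577, 586, 627 and 653 CPM in cKO replicates 1 to 4, where replicates 1 and 2 were below the controls and replicates 3 and 4 among them (log2 fold change -0.08, SE 0.057, adjusted p = 0.889 by edgeR). Without control replicate 1 the values were -0.04 for Stxbp5 and -0.05 for Napb. The ATPase gene Nsf was at 1060 ± 32.0 and 1048 ± 56.6 CPM (SD, n = 4). The complexins, which clamp and promote fusion, had opposite signs: Cplx1 was at 707 ± 9.68 in control brain and 738 ± 56.3 CPM in cKO brain, and Cplx2 at 1347 ± 52.5 and 1289 ± 31.5 CPM. In the class 5 of 9 members were negative, with a median of -0.02 (0.0076 without control replicate 1 and 0.0014 with offsets for GC content), and 0 had an unadjusted edgeR p under 0.05.

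In the active zone and priming class 10 of 13 members were negative, with a median of -0.06. It was -0.12 without control replicate 4, -0.09 without control replicate 3 and without cKO replicate 3, and -0.03 with both replicates 1 left out. Erc2 (CAST), an ELKS family scaffold that binds RIM, Bassoon and Piccolo, held 199, 169, 169 and 174 CPM in control replicates 1 to 4. In cKO replicates 1 to 4 it held 147, 161, 156 and 170 CPM. cKO replicates 1, 2 and 3 were below every control and cKO replicate 4 was inside the control range; the log2 fold change was -0.17 (SE 0.064, unadjusted edgeR p under 0.05, adjusted p = 0.889 by edgeR). Without control replicate 1 the value of Erc2 was -0.10, and with both replicates 1 left out it was -0.07. Its paralog Erc1, expressed in many tissues, was at 42.6 ± 7.74 CPM in control brain and 38.8 ± 2.71 CPM in cKO brain (SD, n = 4).

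Ppfia2 and Ppfia3 encode liprin-alpha scaffolds. Ppfia2 held 116, 110, 109 and 105 CPM in control replicates 1 to 4, and 97.3, 95.4, 106 and 104 CPM in cKO replicates 1 to 4. Control replicate 4 and cKO replicate 3 overlapped narrowly, and the log2 fold change was -0.13 (SE 0.059, unadjusted edgeR p under 0.05, adjusted p = 0.889 by edgeR). Acss3, on the other strand, shares 2436 exon bases with Ppfia2 and held 176 reads against 15010 for Ppfia2. Without control replicate 1 the value of Ppfia2 was -0.10, and with both replicates 1 left out it was -0.08. Ppfia3 lay the other way, at 202 ± 7.18 and 215 ± 19.6 CPM (SD, n = 4), with 232 and 233 CPM in cKO replicates 1 and 2 and 200 and 197 CPM in replicates 3 and 4.

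**Figure D3:**
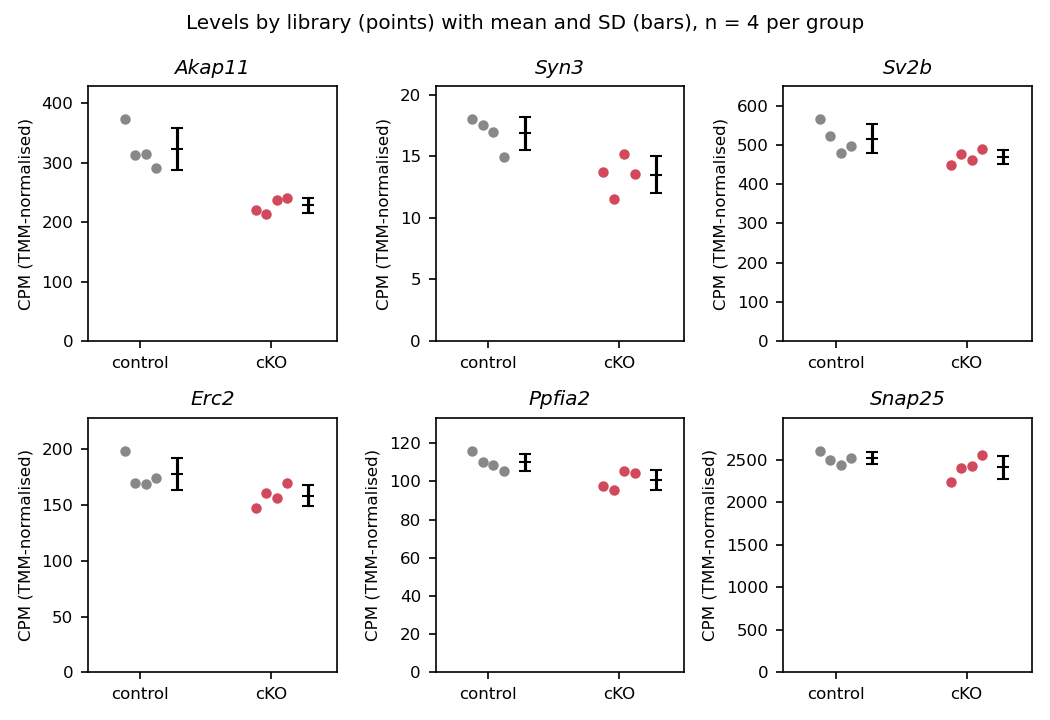
TMM-normalised CPM (y axis, from 0) of Akap11, of the 4 members with an unadjusted edgeR p under 0.05, and of Snap25, in control and cKO brain (x axis); points are libraries in order of replicate number, bars the mean and SD (n = 4). The groups are apart for Akap11 and overlap for Syn3, Sv2b, Erc2, Ppfia2 and Snap25.

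RIM proteins link vesicles, calcium channels and Munc13, and RIM1 is phosphorylated by protein kinase A. Rims1 held 292, 256, 250 and 251 CPM in control replicates 1 to 4, and 242, 229, 238 and 259 CPM in cKO replicates 1 to 4. Control replicate 1 was well above the other controls, and cKO replicate 4 above 3 of the 4 controls (log2 fold change -0.12, SE 0.062, adjusted p = 0.889 by edgeR). Without control replicate 1 the value of Rims1 was -0.06. Rims2 was at 125 ± 7.80 and 117 ± 8.43 CPM, and the short form gene Rims3, the most abundant of the class in CPM per kilobase (45.2 ± 1.77 in control, 47.5 ± 2.74 in cKO), at 294 ± 11.5 and 309 ± 17.8 CPM (SD, n = 4). Rimbp2, which joins RIM to calcium channels, was at 170 ± 11.1 and 166 ± 6.48 CPM.

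Munc13 genes showed little difference between the groups. Unc13a, the main priming factor of excitatory synapses, was at 456 ± 15.8 CPM in control brain and 466 ± 32.1 CPM in cKO brain, Unc13b at 66.0 ± 1.12 and 63.5 ± 3.22 CPM, and Unc13c at 92.7 ± 8.38 and 89.2 ± 3.32 CPM (SD, n = 4). The giant scaffold genes Bsn and Pclo were spread by 1 control library. Pclo held 315 CPM in control replicate 1 and 207 to 224 CPM in the other controls, against 195 to 223 CPM in cKO libraries. Its log2 fold change was -0.18 (95% interval -0.45 to 0.09), and -0.02 without control replicate 1. Bsn held 615 CPM in that library and 446 to 499 CPM in the other controls, against 438 to 545 CPM in cKO libraries (log2 fold change -0.06, and 0.05 without control replicate 1).

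The endocytosis genes had log2 fold changes from -0.07 to 0.04, and 0 of the 5 had an unadjusted edgeR p under 0.05. Synj1, the lipid phosphatase that helps to uncoat vesicles, held 542, 474, 488 and 464 CPM in control replicates 1 to 4. It held 479, 460, 459 and 478 CPM in cKO replicates 1 to 4, with replicates 1 and 4 inside the control range and replicates 2 and 3 below it (log2 fold change -0.07, SE 0.057, adjusted p = 0.894 by edgeR). Without control replicate 1 the value of Synj1 was -0.02. Dnm1, the neuronal dynamin that cuts the vesicle neck and the most abundant of the 5 genes in CPM per kilobase (305 ± 11.1 in control, 314 ± 23.3 in cKO), held 1434, 1400, 1333 and 1447 CPM in control replicates 1 to 4. In cKO replicates 1 to 4 it held 1549, 1528, 1343 and 1365 CPM, high in replicates 1 and 2 and within the control range in the others (log2 fold change 0.04, SE 0.059, adjusted p = 0.924 by edgeR). It was 0.0044 without cKO replicate 1, 0.01 without control replicate 3 and 0.02 without cKO replicate 2, and the sign turned with offsets for GC content (-0.02).

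Amph (amphiphysin), which recruits dynamin, held 247, 229, 233 and 228 CPM in control replicates 1 to 4, and 246, 222, 220 and 232 CPM in cKO replicates 1 to 4. cKO replicates 1 and 4 were inside the control range and replicates 2 and 3 below it, and the log2 fold change of -0.02 (SE 0.056, adjusted p = 0.959 by edgeR) was 0.0065 without control replicate 1. Snap91, the clathrin adaptor AP180, was at 408 ± 21.2 and 402 ± 13.1 CPM, and Sh3gl2 (endophilin A1), which bends the membrane and recruits synaptojanin, at 325 ± 13.4 and 321 ± 12.6 CPM (SD, n = 4). In this class 4 of 5 members were negative, with a median of -0.02. These signs moved with control replicate 1: without it only Synj1 was negative, and the median was 0.01. With control replicate 1 and cKO replicate 1 both left out, the median was -0.01. Amph, Synj1 and Sh3gl2 were then negative, and Snap91 and Dnm1 positive.

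Protein kinase A acts on transcription through CREB, which binds the cAMP response element. The palindrome TGACGTCA (the same on both strands) was searched in RefSeq windows of 300 bases, from 250 before to 50 after each gene's start, on GRCm38.p6. Windows were found for 38 of the 45 members, all but Doc2a, Rims2, Snap25, Syn3, Syt4, Syt7 and Vamp2. The palindrome stood in a window of 2 of the 38 (5.26%), Syn1 and Sh3gl2, and of 549 of all 27025 genes with windows (2.03%). Both are shown because they are the members with the full site, which is in capitals. The Syn1 window lies at chrX:20920869-20921168 on the minus strand and the Sh3gl2 window at chr4:85205206-85205505 on the plus strand, and the site begins 159 and 37 bases before the start of the gene.
Syn1: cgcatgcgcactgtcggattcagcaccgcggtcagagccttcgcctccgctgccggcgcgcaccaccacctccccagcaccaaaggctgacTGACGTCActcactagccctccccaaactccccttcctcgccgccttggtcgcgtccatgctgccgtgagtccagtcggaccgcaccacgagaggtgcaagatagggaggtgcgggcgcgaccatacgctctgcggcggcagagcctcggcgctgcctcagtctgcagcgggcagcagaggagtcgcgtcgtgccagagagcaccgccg
Sh3gl2: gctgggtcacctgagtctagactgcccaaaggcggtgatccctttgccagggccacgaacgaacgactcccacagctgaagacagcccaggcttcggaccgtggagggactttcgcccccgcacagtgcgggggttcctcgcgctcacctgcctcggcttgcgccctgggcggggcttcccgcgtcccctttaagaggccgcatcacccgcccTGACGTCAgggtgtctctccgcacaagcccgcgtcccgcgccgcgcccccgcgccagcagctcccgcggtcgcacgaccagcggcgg
The log2 fold changes of these genes were 0.08 for Syn1 (95% interval -0.06 to 0.21) and -0.02 for Sh3gl2 (95% interval -0.13 to 0.09), and neither passed the test. The other 36 members with windows had a median of -0.05.

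A further 92 presynaptic genes outside the 45 were taken from a list of known roles, 90 of which were matched and 89 tested. Of these, 0 passed the adjusted edgeR test, 46 were negative and 43 positive, and the median log2 fold change was -0.0028. An unadjusted edgeR p under 0.05 was reached by 2 of them, both endocytosis genes: Sh3gl1 (endophilin A2), the broadly expressed relative of Sh3gl2, at 29.0 ± 1.27 CPM in control brain and 34.4 ± 1.48 CPM in cKO brain, and Itsn2 (intersectin 2), an endocytic scaffold, at 80.6 ± 2.44 and 73.6 ± 1.90 CPM (SD, n = 4). Neither had overlapping groups: cKO libraries were higher for Sh3gl1 (log2 fold change 0.25, SE 0.073) and lower for Itsn2 (-0.13, SE 0.058), with an edgeR adjusted p of 0.889 for each. The count of 2 was 1 without control replicate 1, 5 without control replicate 4 and 6 without cKO replicate 4, where 2.73%, 5.91% and 7.22% of all genes had such a p, against 4.78% with all libraries. In the other groups the lowest p-values belonged to Lin7a (-0.16) and Mycbp2 (-0.12) of the active zone, Rab3d (0.22) and Rab3gap1 (-0.07) of the Rab cycle, Stxbp5l (-0.13) and Snap29 (-0.13) of the SNARE group, and Sncb (0.09) and Syngr3 (0.11) of the vesicle group, as log2 fold changes.

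The small differences went with the base composition and the length of the transcripts. Over the 45 genes, log2 fold change and GC content of the longest transcript had a Spearman's rho of 0.681, given as a description since the genes share the same 8 libraries. Of the 15 members lowest in GC (38.7% to 45.8%), 14 were negative, with a median of -0.08. Of the 15 in the middle (46.5% to 53.5%), 12 were negative, with a median of -0.06. Of the 15 highest in GC (53.7% to 60.9%), 4 were negative, with a median of 0.04.

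Among the 45 genes the trend was strongest in cKO replicates 1 and 2. In single libraries, the rho between GC content and a member's level relative to the control mean was 0.751 in cKO replicate 1 and 0.736 in cKO replicate 2, but -0.09 and -0.07 in cKO replicates 3 and 4, and between -0.295 and 0.409 in the controls. All genes tested with a mean above 10 CPM were also examined, relative to their mean over the 8 libraries. Their rho with GC content was 0.665 and 0.366 in cKO replicates 1 and 2, but -0.265 and -0.434 in replicates 3 and 4. In the controls it ran from -0.344 to -0.00759. Without cKO replicate 1 the rho over the 45 fold changes was 0.414, and with per-library offsets for GC content it was 0.151. The rho of the 45 fold changes with transcript length was -0.458, and -0.456 with those offsets. With those offsets 32 of 45 members were negative: 11 of the low-GC, 12 of the middle and 9 of the high-GC 15. The median over the 45 was -0.03, and 0 passed the adjusted edgeR test. Over all genes in that fit 49.2% were negative, with a median of 0.0019. Synpr was then at -0.02, Stxbp5 and Napb at -0.03, Ppfia2 at -0.07, Rab3a at 0.02 and Stx1a at 0.04. Syn3 (-0.28), Sv2b and Erc2 kept an unadjusted edgeR p under 0.05 in that fit, and Ppfia2 did not. Of all genes, 4.7% had such a p there.

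**Figure D4:**
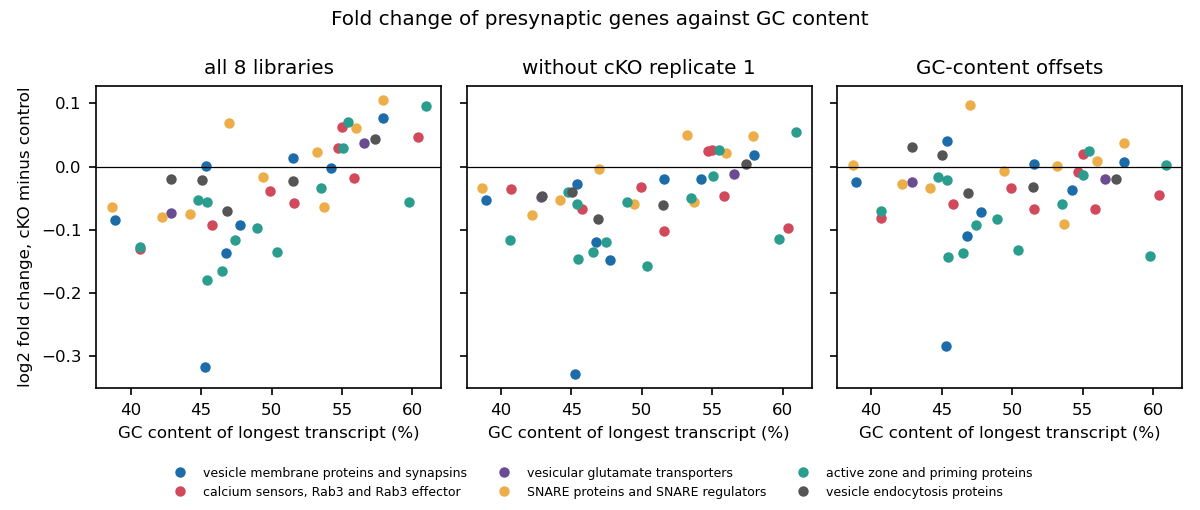
Log2 fold change (y axis, cKO minus control) of the 45 genes against the GC content of the longest transcript (x axis, %), coloured by class, with all 8 libraries, without cKO replicate 1, and with per-library offsets for GC content. Spearman's rho is 0.681, 0.414 and 0.151 in the 3 panels, and Syn3 is the lowest point in each.

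Summed over each class, the groups overlapped in all 6 classes. The SNARE class summed to 7773 ± 156 CPM in control brain and 7628 ± 104 CPM in cKO brain (SD, n = 4), the calcium sensor class to 4341 ± 127 and 4216 ± 52.0 CPM, and the vesicle membrane class to 3175 ± 108 and 3145 ± 134 CPM. Endocytosis genes summed to 2863 ± 104 and 2869 ± 133 CPM, active zone genes to 2748 ± 184 and 2668 ± 94.2 CPM, and the transporters to 1227 ± 67.8 and 1251 ± 93.8 CPM. The 45 genes together made up 21489 to 23131 CPM in control brain and 21187 to 22158 CPM in cKO libraries. Forebrain excitatory markers (5 genes) summed to 2751 to 3205 and 2754 to 3051 CPM over the same libraries, and inhibitory markers (7 genes) to 1628 to 1680 and 1615 to 1672 CPM.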

How the data were processed

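Gene counts of 8 brain libraries, 4 control and 4 Akap11 cKO, were used as the authors deposited them, as raw read counts per Ensembl gene. The submitters' processing notes name HISAT2 and GRCm39. Versions, the counting tool, its strand setting and the annotation were not given in the sources used here. Rows that name no gene were left out of library sizes and tests; reads in genes made up 63.8% to 79.7% of each library's total. Symbols were matched for 51880 of 57186 gene identifiers. The members and the gene lists were chosen with earlier results of these data known.

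Counts were filtered with filterByExpr, scaled by TMM and fitted over 16766 genes with edgeR 4.0.16 (quasi-likelihood, robust, group as the only term), with Benjamini-Hochberg adjustment over all of them and a threshold of 0.05. Alternatives used DESeq2 1.42.0, limma 3.58.1 (voom), other scaling, no filter, a replicate block, loess offsets for GC content per library (98.2% of tested genes had a value) and left-out libraries. The code was tested on simulated data. CPM per kilobase used the longest GENCODE M21 transcript. Per-library values with fold change and SE are given for the 3 members of each class with the lowest unadjusted p (both transporters), and the member of each class with the highest level per length is named; for the other presynaptic genes, the 2 with the lowest unadjusted p per group. Snap25, named for its level per length, was also given by library, which this rule does not ask for. Pclo, Bsn, Syn1 and Ppfia3 were given by library after their values were seen. R 4.3.3 was used.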

Additional observations from a re-analysis of the deposited data

Results flagged for a closer look

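In 112 groups of 4 libraries examined (gene levels, class sums and read shares), 8 held a library far from the other 3, by Dixon's 95% critical value for the gap over the range. Chance flags about 1 in 20 groups. Control replicate 1 was the highest control for Pclo (315.3 CPM), Rims1 (292.3 CPM) and the summed calcium sensor class (4529 CPM). Control replicate 3 was the lowest control for Slc17a7 (1001 CPM) and the summed transporters (1127 CPM). Control replicate 4 was the lowest control for Syt4 (161.7 CPM). Among cKO libraries, replicate 1 was the highest for Rims3 (336 CPM) and replicate 3 the lowest for Erc1 (34.73 CPM).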

How the results depend on the processing

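No alternative put any of the 45 genes past the adjusted threshold; the lowest adjusted p over 17 analyses was 0.679. Over these, 18 members were negative in every one, 6 positive in every one and 21 took both signs. The same count was not made over all genes. Members with an unadjusted p under 0.05 numbered 4, 1 with control and cKO replicate 1 both left out, and 1 to 6 with 1 library left out. The share of all genes was 4.78%, 2.84% and 2.73% to 7.22% in these fits. Members with groups that do not overlap ranged from 0 to 6 with 1 library left out, beside 4.83% to 7.35% of all genes. All genes past the adjusted threshold numbered 4, then 7 without the low-count filter, 2 with the replicate block, 2 with both replicates 1 left out, and 0 to 3 with 1 library left out. Other presynaptic genes with an unadjusted p under 0.05 numbered 2, then 1 with library totals, 1 with the replicate block, 1 with both replicates 1 left out, and 1 to 6 with 1 library left out. Of all genes, 4.89% had such a p with library totals and 4.07% with the replicate block.

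With 1 library left out, the Akap11 log2 fold change ran from -0.552 to -0.42, with adjusted p (edgeR) of 0.0616 without control replicate 2 (-0.5176) and 0.104 without cKO replicate 2 (-0.4711). The class medians ran from -0.04802 to 0.005536 for the calcium sensors, -0.03471 to 0.007581 for the SNARE class, -0.04612 to 0.01011 for endocytosis, -0.1189 to -0.03855 for the active zone, -0.05784 to -0.02078 for the vesicle membrane class and -0.03261 to -0.006658 for the transporters; the first 3 turned sign. Among the members given by library with fold change and SE, some signs turned. With 1 library left out these were Slc17a7 (-0.01682 to 0.08373), Slc17a6 (-0.1166 to 0.000697) and Amph (-0.06092 to 0.006527). With GC offsets they were Slc17a7 (-0.0192) and Dnm1 (-0.02047). Other members turned sign too, among them Bsn (0.05106 without control replicate 1) and Snap25 (0.001988 with GC offsets). With GC offsets 37 members kept the sign they had without them. Over the 17 analyses 21 members took both signs. The cause was not tested. Same-numbered libraries of the groups did not deviate together (correlations 0.00474 to 0.0483). The labels do not say whether the numbers pair them, and these correlations cannot tell. With the replicate block, 3 members had an unadjusted p under 0.05 and 31 were negative, beside 4.07% and 49.3% of all genes.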
